A study of Homo sapiens with 30 samples.

Results

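Type I collagen is a triple helix of 2 proα1 chains and 1 proα2 chain, encoded by COL1A1 and COL1A2. The messengers of both genes were followed along their length in iCLIP data of LARP6, an RNA-binding protein known for contacting a stem-loop at the start codon of these mRNAs. All peaks centred in either gene on its own strand were taken, 73 of 14334 in the list of full-length LARP6 (FL). The list of a mutant without the N-terminal region (ΔNTR) gave 102 of 17180 peaks, and that of a mutant without the C-terminal region (ΔCTR) gave 98 of 15870. Lists of mutants that lack the La-module, the folded RNA-binding part (ΔLa-module), or the N-terminal region and the La-module together (ΔNTD) held 636 and 291 peaks, none of them in either gene.

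The cells were U-87 MG, an established human glioblastoma line. Each variant carried a myc tag, was was expressed from a codon-optimised lentiviral construct and was switched on over 24 h by doxycycline at 60 ng/mL. Transduced cells had been selected with puromycin, with no cloning step described. All lines kept their own LARP6 gene. Parental cells without a construct, for which the labels list the same doxycycline, were the negative control, and their peaks had been subtracted by the authors. Of the 18 iCLIP samples, the 3 of each variant reached the deposited lists as 1 merged list, and total RNA came as 1 long-RNA (PE150) and 1 small-RNA (SE50) library for each of the 6 lines. No replicate spread could therefore be measured for any value here, and the 95% intervals cover counting error only. Between 25027075 and 28692476 counts fell in genes in a PE150 library. VIM, CD44 and FN1, mesenchymal genes of this line, ran from 2083 to 8004 CPM (counts scaled to the depth of the library), 3 of 7 glial genes reached 1 CPM (SLC1A3 and NES at 46.7 to 59.7 CPM, OLIG2 at 1.46 to 2.54), GFAP did not exceed 0.24 CPM, and CDKN2A, which U-87 MG has lost, had no count. Endogenous LARP6 stood at 51.6 to 75.0 CPM, which does not measure the codon-optimised variants.

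Collagen mRNAs are translated at the endoplasmic reticulum, where the signal peptide of the nascent chain directs the ribosome. Their coding sequence (CDS) is dominated by a repeat in which each glycine is followed by 2 variable residues (Gly-X-Y), since only glycine fits the centre of the triple helix. Propeptides on either side of the repeat are removed after secretion, and the C-terminal one brings the chains together. The stem-loop spans the end of the 5′UTR and the first codons, and it is conserved between the mRNAs of type I and type III collagen.

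COL1A1 (ENSG00000108821) lies at chr17:50184101-50201632 on the minus strand of GRCh38, and COL1A2 (ENSG00000164692) at chr7:94394895-94431227 on the plus strand. The reference transcript of COL1A1 has 51 exons and 5914 nt, made of 118 nt of 5′UTR, 4395 nt of CDS and 1401 nt of 3′UTR. That of COL1A2 has 52 exons and 5072 nt, with 137, 4101 and 834 nt. The uninterrupted Gly-X-Y run covers residues 179 to 1192 of COL1A1, in 338 triplets, and residues 91 to 1107 of COL1A2.

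Close to the start codon, both mRNAs carried an FL peak at the same place. The peaks are shown because their letters are nearly the same in the genes. In these windows the 30 nt end with the start codon atg, and capitals mark the FL peak:
COL1A1, chr17:50201511-50201540, minus strand: aagagtctacATGTCTAGGGTCTAGACAtg
COL1A2, chr7:94395005-94395034, plus strand: aggagtctgcATGTCTAAGTGCTAGACATg
The capitals are 18 nt in COL1A1 and 19 nt in COL1A2, and each peak ran into the start codon. Aligned at that codon, the genes shared 41 of 47 nt from 31 nt before to 15 nt after its first base, and 22 of the 79 nt further upstream. Folding of each 5′UTR with 40 nt of CDS in RNAfold placed the start codon in a hairpin, with all 3 of its bases paired. The hairpin took up mRNA positions 87 to 134 of COL1A1, with 18 base pairs, and 93 to 167 of COL1A2, with 27. The peak at the start codon lay within it in both.

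The strongest FL peak of each gene lay just upstream, and it differs in sequence between them. Its last base lay 28 nt before the first base of the start codon in COL1A1 and 29 nt before it in COL1A2. The COL1A1 peak is shown whole, 29 nt, and the COL1A2 peak of 42 nt by its middle 30 nt, in capitals because every base lies in the peak:
COL1A1, chr17:50201541-50201569, minus strand: AGCGGACGCTAACCCCCTCCCCAGCCACA
COL1A2, chr7:94394968-94394997, plus strand: GATACCTCCGCCGGTGACCCAGGGGCTCTG
Only 5 of the 29 nt in COL1A1 and 17 of the 42 nt in COL1A2 lay inside the predicted hairpin. The most upstream FL peak began before the annotated start of the reference mRNA in both genes, by 11 nt in COL1A1 and 10 nt in COL1A2.

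The score of a peak is the value Clippy, the peak caller of the study, gave it, summed by the authors over the replicates. It was at least 3 in every list and was not scaled to depth. In COL1A1 the 3 sites of the 5′UTR, from the cap to the start codon, scored 16, 92 and 43 in FL. They scored 6, 39 and 12 in ΔNTR and 18, 111 and 33 in ΔCTR. Each was lower in ΔNTR than in the other lists, and ΔCTR stayed near FL. In COL1A2 the most upstream site scored 14 in FL and 9 in each mutant. Its strongest site scored 98, 46 and 107 in this order, and the peak at the start codon 35, 25 and 27. A small peak of 5 nt between the first and the strongest scored 5 in FL and 4 in ΔCTR and had no ΔNTR counterpart.

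Summed over the 5′UTR, the ΔNTR score was 0.377 times that of FL in COL1A1 (95% interval 0.273 to 0.515) and 0.526 times in COL1A2 (0.396 to 0.694). The whole ΔNTR list stood at 0.904 times FL, and all 5′UTR peaks together at 1.00. For ΔCTR the ratios were 1.07 in COL1A1 (0.854 to 1.35) and 0.967 in COL1A2 (0.766 to 1.22), while all 5′UTR peaks of that list stood at 0.682 times FL. Of 74 genes with a 5′UTR score of at least 20 over FL and ΔNTR, 6.76% had a lower ratio than COL1A1 and 23% a lower one than COL1A2.

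**Figure D1:**
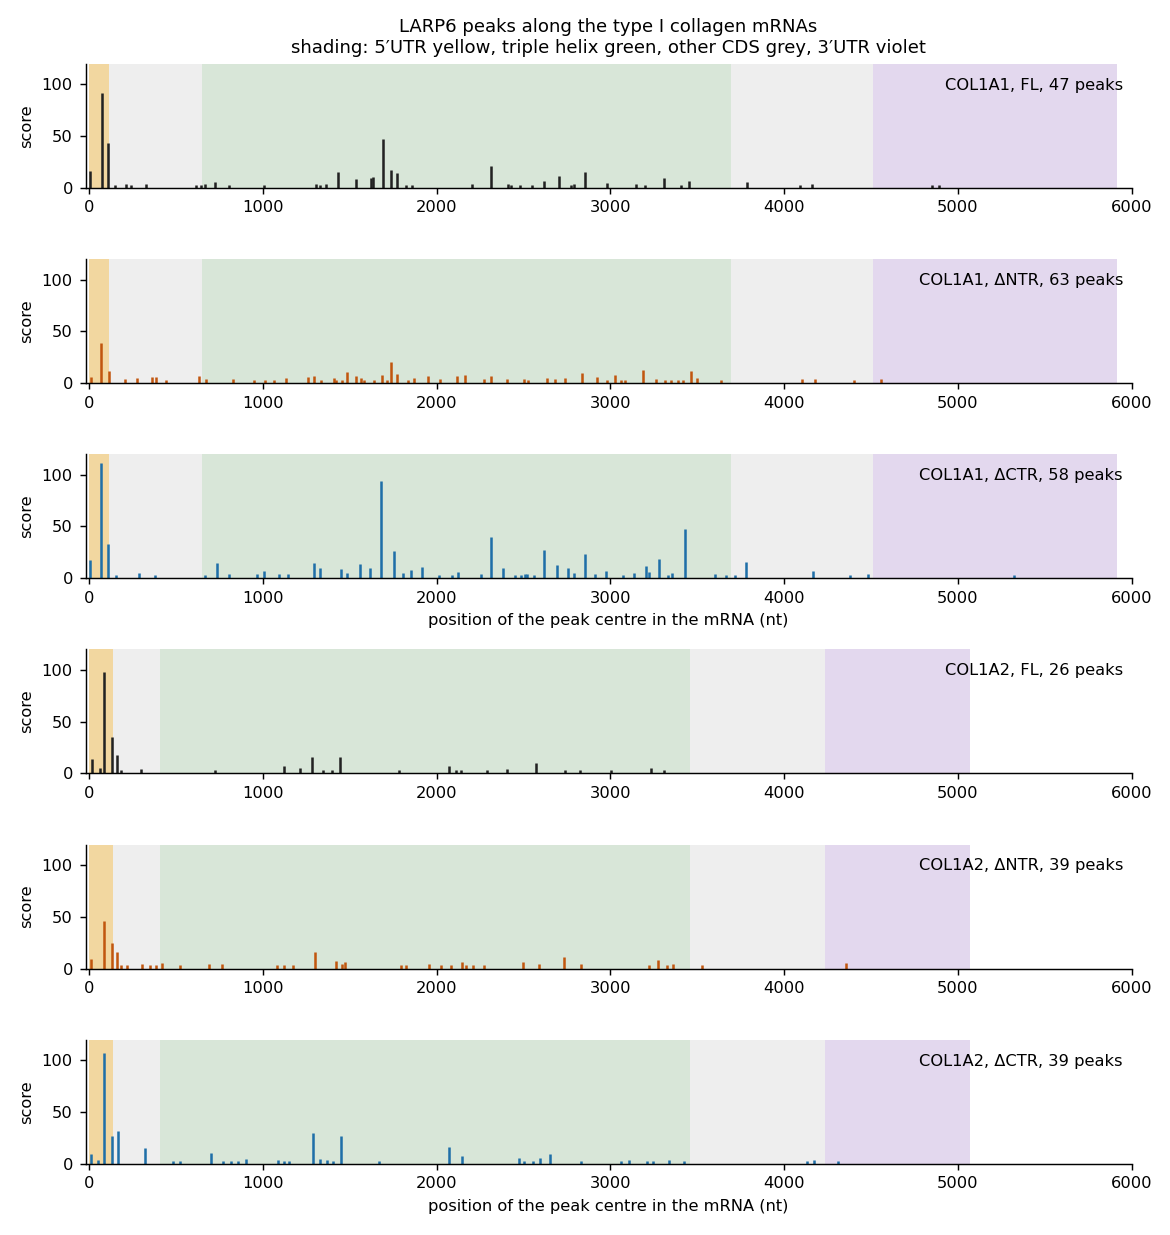
Peak scores along the COL1A1 and COL1A2 mRNAs in the FL, ΔNTR and ΔCTR lists; x, position of the peak centre in nt; y, score; 1 line is 1 peak, and the shading gives the region. The highest line of every panel stands in the 5′UTR, the coding sequence holds many peaks, up to 94 in ΔCTR of COL1A1, and the 3′UTR is nearly empty; the 1 intronic ΔCTR peak of COL1A2 is not drawn.

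Most peaks lay in the coding sequence, beyond the stem-loop except for a site in exon 1 of COL1A2 that overlapped the predicted hairpin. The CDS of COL1A1 held 42 FL peaks (95% interval 30.3 to 56.8), 59 ΔNTR peaks and 54 ΔCTR peaks. That of COL1A2 held 22 (13.8 to 33.3), 35 and 34. In FL these were 89.4% of the COL1A1 peaks (77.4 to 95.4%) and 84.6% of the COL1A2 peaks (66.5 to 93.9%), where 36.6% of all FL peaks lay in a CDS. The 3′UTR, which took 47.6% of all FL peaks, had 2 FL peaks in COL1A1, both at the minimum score of 3, and none in COL1A2. ΔNTR and ΔCTR each had 1 peak in either 3′UTR, with scores from 3 to 5. One ΔCTR peak, of score 7, was centred in an intron of COL1A2.

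The weight of the CDS was smaller by score than by number of peaks. In FL it held 65.3% of the COL1A1 score and 45.7% of the COL1A2 score. Among the mutants, ΔNTR had 83.6% and ΔCTR 77.6% for COL1A1, and 66.3% and 60.5% for COL1A2. In FL, 16 of the 42 CDS peaks of COL1A1 (38.1%) and 12 of the 22 of COL1A2 (54.5%) stood at the minimum score, as did 2831 of all 5244 FL CDS peaks (54%). By number of CDS peaks in FL, COL1A1 took rank 6 and COL1A2 rank 11 of 2337 genes with such a peak, behind long mRNAs such as FN1 (57 peaks), FLNA (50) and COL6A3 (46).

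Against FL, the CDS score moved differently from the 5′UTR score. For COL1A1 it was 295 in FL against 312 in ΔNTR, a ratio of 1.06 (0.899 to 1.24), and 128 and 167 for COL1A2, a ratio of 1.30 (1.03 to 1.66). Both genes thus had a lower 5′UTR score and a CDS score that was higher by any margin, though the COL1A1 interval included 1. Above a score of 3, the CDS ratio was 1.01 in COL1A1 and 1.23 in COL1A2. By any margin, the pattern was shown by 12 of 45 genes that summed to at least 20 in both regions over FL and ΔNTR, 26.7%. The gap between the log2 ratios of CDS and 5′UTR, with 1 added to each score, was 1.47 in COL1A1 and 1.30 in COL1A2, ranks 7 and 9 of these 45 genes, whose median was -0.12. This rule and its minimum were set with the members' values known.

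In ΔCTR the CDS score was 572 in COL1A1, 1.94 times FL (1.68 to 2.24), and 240 in COL1A2, 1.88 times (1.51 to 2.34). A ratio of at least 1.5 was found for 218 of 678 genes with a CDS score of at least 20 over both lists, 32.2%. All CDS peaks of the ΔCTR list together stood at 1.16 times FL. Over the whole gene the ΔNTR ratio was 0.825 in COL1A1 (0.718 to 0.949) and 0.900 in COL1A2 (0.756 to 1.07). The ΔCTR ratio was 1.63 (1.45 to 1.84) and 1.42 (1.21 to 1.66).

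**Figure D2:**
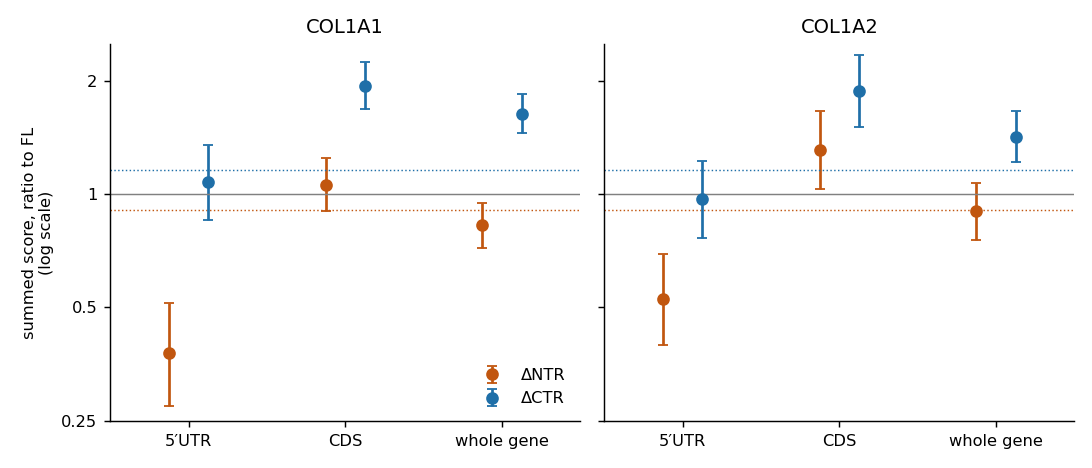
Summed score in ΔNTR and ΔCTR as a ratio to FL (y, log scale) for the 5′UTR, the CDS and the whole gene of each collagen mRNA; points are ratios, bars are exact binomial 95% intervals of counting error, and dotted lines are the ratios of the whole lists, 0.904 and 1.16. The ΔNTR points of the 5′UTR lie at 0.377 and 0.526, below all others, and the ΔCTR points of the CDS at 1.94 and 1.88, above all others.

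Within the coding sequence, the score of COL1A1 per kb was higher in the codons of the triple helix than in the others. FL peaks numbered 33 in the helix, 10.8 per kb of codons, against 9 in the remaining codons, 6.65 per kb. This ratio of 1.63 had an interval from 0.763 to 3.88. It was 2.47 in ΔNTR (1.20 to 5.72) and 2.56 in ΔCTR (1.20 to 6.27). The FL score of the helix was 262, or 86.1 per kb, against 24.4 per kb elsewhere, a ratio of 3.53 (2.45 to 5.24). All 8 FL peaks of COL1A1 with a CDS score of 10 or more lay in the helix. By number of peaks, the codons before the helix had 6 in FL, 11.2 per kb, close to the 10.8 of the helix, though with a score of 4 at most. The 819 nt after it had 3, or 3.66 per kb.

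COL1A2 differed at its ends. Its helix held 19 FL peaks, 6.23 per kb, against 3 in the other codons, 2.86 per kb, a ratio of 2.18 (0.642 to 11.5). Corresponding ratios were 1.38 in ΔNTR (0.588 to 3.73) and 2.58 in ΔCTR (0.910 to 10.1), so that none of the intervals excluded 1. By score the helix stood at 33.8 per kb and the other codons at 23.8 per kb, a ratio of 1.42 (0.909 to 2.29). Most of the latter came from exon 1, where a site over the signal peptide, at residue 11 of the chain, scored 21 in FL against 19 and 32 in ΔNTR and ΔCTR. It lay at chr7:94395037-94395089, close behind the start codon. Its stronger FL peak, of score 18, had its centre at mRNA position 161, inside the predicted hairpin of positions 93 to 167. After the helix, COL1A2 had no FL peak in 780 nt, 1 in ΔNTR and 2 in ΔCTR.

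Of the 41 exons of COL1A1 and the 42 of COL1A2 that encode helix alone, 21 and 23 were 54 nt long, a whole number of Gly-X-Y triplets. Peaks were spread over the exons. Of the 51 coding exons of COL1A1, 32 held an FL peak, 42 a ΔNTR peak and 39 a ΔCTR peak in the CDS, and 3 held none. Of the 52 coding exons of COL1A2, the numbers were 19, 27 and 27, and 14 held none. Within the helix, the centres of FL peaks fell on codons for Gly, X and Y 8, 17 and 8 times in COL1A1 and 7, 6 and 6 times in COL1A2.

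Merging peaks that overlapped across the lists gave 69 CDS sites in COL1A1, 21 of them in all 3 lists. In COL1A2 it gave 50 CDS sites, 11 of them in all 3, and the share over all genes was not computed. The strongest lay in exon 23 of COL1A1, at chr17:50194351-50194457 and residue 521. Its score was 57 with FL, 14 with ΔNTR and 94 with ΔCTR. ΔNTR was lowest there, as in the 5′UTR. The neighbouring site in exon 24, at residue 546, scored 31, 29 and 26, with little difference between the lists. Further downstream, the site of exon 32 at residue 733 scored 21, 7 and 40, and that of exon 39 at residue 913 scored 19, 10 and 28. These had the same order of lists as exon 23. Exon 20 at residue 439 scored 15, 6 and 9. Exon 37 at residue 859 scored 11, 4 and 13. In exon 45, at residue 1105, the order was different, with FL at 10, ΔNTR at 18 and ΔCTR at 48.

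In COL1A2 the highest helix sites scored 19, 17 and 30 in exon 23, at residue 438, and 16, 16 and 35 in exon 21, at residue 384. Exon 40 at residue 813 scored 10, 4 and 9, exon 32 at residue 644 scored 7, 3 and 16, and exon 19 at residue 329 scored 7, 3 and 3. FL and ΔNTR were nearly level in the first 2 of these. At the 21 CDS sites common to the lists in COL1A1, ΔNTR was below FL at 10 and above it at 6, and ΔCTR was below at 3 and above at 18. At the 11 of COL1A2, ΔNTR was below at 6 and above at 4, and ΔCTR below at 3 and above at 7.

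At the CDS sites common to all lists, the summed score of COL1A1 was 233 in FL, 169 for ΔNTR and 419 for ΔCTR. In COL1A2 it was 98, 89 and 158. The remaining sites lack a peak in at least 1 list, so their scores follow from that split and are not compared.

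Mutant peaks that no FL peak overlapped were low. The highest such ΔNTR peaks in COL1A1 scored 11, in exon 21 at residue 455, and 8, in exon 31 at residue 682 and in exon 40 at residue 970. In COL1A2 they scored 8, in exon 47 at residue 1046, and 6, in exons 23 and 39 at residues 446 and 786. The peak in exon 23 lay in the site at residue 438 that FL shared. The highest such ΔCTR peaks scored 11 in COL1A1, in exon 26 at residue 601, followed by 6 in exons 30 and 43 at residues 670 and 1035. They scored 10 and 9 in COL1A2, in exons 12 and 40 at residues 188 and 839.

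Many FL peaks of these mRNAs were found again in the other lists. Of the 47 FL peaks of COL1A1, 32 were overlapped by a ΔNTR peak, 68.1% (53.8 to 79.6%), and 36 by a ΔCTR peak, 76.6% (62.8 to 86.4%). Of the 26 of COL1A2, 19 (73.1%, 53.9 to 86.3%) and 18 (69.2%, 50.0 to 83.5%) were overlapped. Over all 14334 FL peaks the shares were 35.3% for ΔNTR and 37.9% for ΔCTR. The difference was largest for the weakest peaks. Among FL peaks at the minimum score, 19 of the 30 in the collagen mRNAs were overlapped in ΔNTR, 63.3% (45.5 to 78.1%), against 17.0% of all. All 18 with a score of 10 or more were overlapped in either list, against 88.2% and 93.2%. Much of these mRNAs lay in peaks: ΔNTR peaks covered 37.5% of the COL1A1 CDS and 23% of the COL1A2 CDS, and ΔCTR peaks covered 42.9% and 26%. The part of this coverage in the overlap was not tested.

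**Figure D3:**
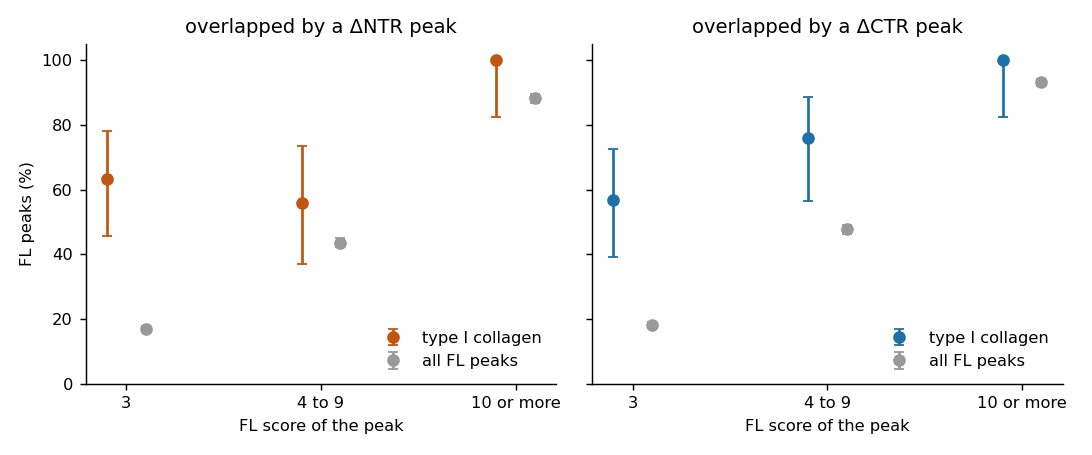
Share of FL peaks overlapped by at least 1 nt of a ΔNTR (left) or ΔCTR (right) peak (y, %), by FL score of the peak (x); coloured points are the 73 FL peaks of both collagen mRNAs, grey points all 14334, and bars are Wilson 95% intervals. At a score of 3 the collagen peaks lie at 63.3% and 56.7%, and all peaks at 17.0% and 18.1%.

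Some of the helix sites lay at the same place of the chain in both genes. Aligned without gaps from the first Gly, 65.8% of the helix residues and 66.3% of the helix nucleotides were identical. The strongest FL peaks in exon 23 had their centres at helix residues 347 of COL1A1 and 346 of COL1A2, 4 nt apart. In exon 32 they lay at helix residues 553 and 554, 3 nt apart. These exons were picked by hand, and the sites of other exons were not compared in this way. The sequences are shown to give the likeness of these places, with capitals where both genes have the same base:
COL1A1 exon 23, chr17:50194376-50194405, minus strand: aaAGGAtCTccTGGtGAaGCTGGTCGtCCc
COL1A2 exon 23, chr7:94411098-94411127, plus strand: cgAGGAcCTaaTGGaGAtGCTGGTCGcCCt
COL1A1 exon 32, chr17:50191410-50191439, minus strand: cagGGAaTgCCtGGtGAacGtGGTGCaGCT
COL1A2 exon 32, chr7:94417775-94417804, plus strand: agtGGAcTcCCaGGaGAgaGgGGTGCtGCT
The windows shared 21 and 19 of 30 nt, close to the 66.3% over the whole helix. Within 50 nt on either side of the centres, the longest identical run was 12 nt in exon 23 and 5 nt in exon 32. The longest stretch shared by the mRNAs, 30 nt, lay in the codons of the C-propeptide, and no peak of any list touched it.

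Strong sites in exon 39 of COL1A1 and exon 21 of COL1A2 are shown with the Gly codons in capitals, to show the repeat beneath them:
COL1A1 exon 39, chr17:50189457-50189486, minus strand: aaGGTccccgtGGTgagactGGCcctgctG
COL1A2 exon 21, chr7:94410463-94410492, plus strand: aaGGAaagagaGGCcctaatGGGgaagctG
Over the whole helix, 49.5% of the COL1A2 nucleotides in FL peaks lay where COL1A1 had an FL peak too, and COL1A1 peaks covered 32.4% of the helix. The values were 55.9% and 46.3% in ΔNTR, and 64.5% and 53.4% in ΔCTR. These overlaps are descriptions along 1 alignment.

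**Figure D4:**
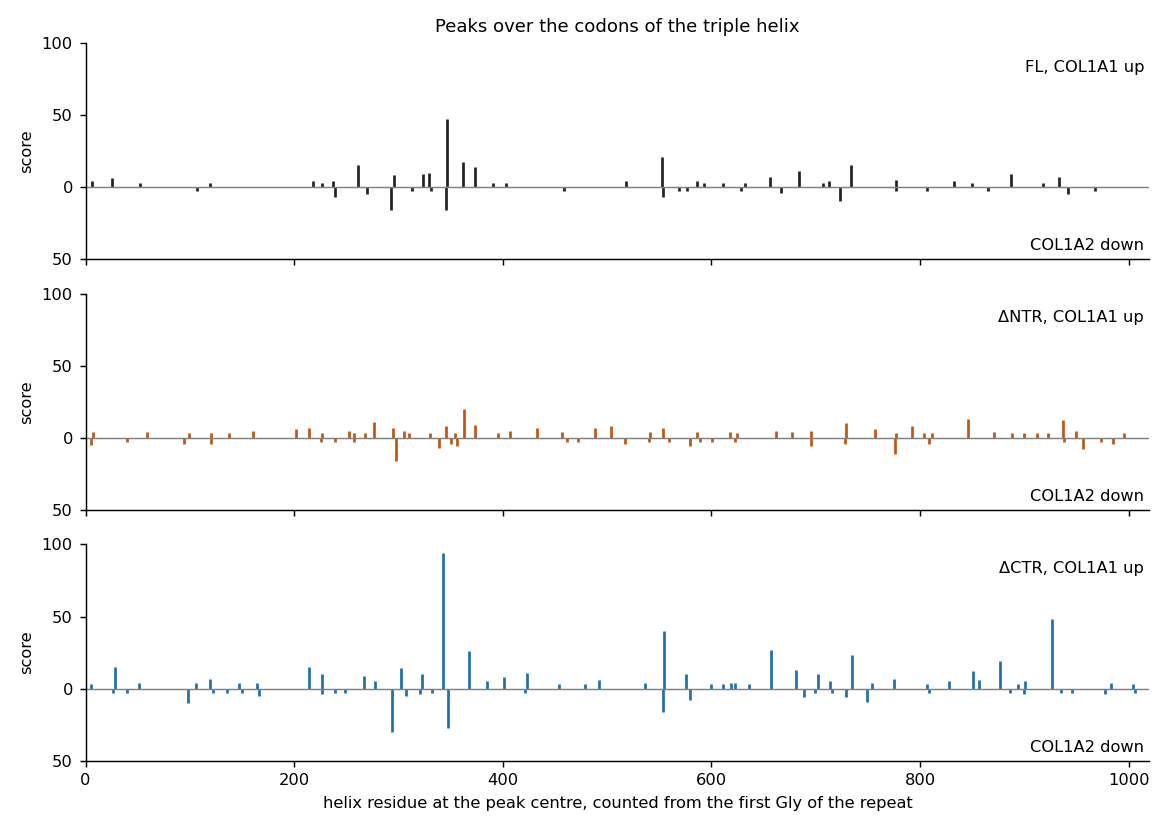
Scores of the peaks over the helix codons (y; COL1A1 drawn upwards, COL1A2 downwards) by helix residue at the peak centre (x, counted from the first Gly), 1 panel per list. The lines of both genes meet near helix residue 346 (FL scores of 47 and 16) and near residue 553 (21 and 7).

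The share of pyrimidines beneath the CDS peaks was close to that of the CDS at large. Pyrimidines made up 50.0% of the COL1A1 CDS under FL peaks, 49.7% under ΔNTR peaks and 52.5% under ΔCTR peaks, and 51.6% of the whole CDS. In COL1A2 the shares were 51.2%, 49.3% and 49.8%, and 49.2% in the whole CDS. Some single bases differed more. Under FL peaks of COL1A1, C made up 28.7% against 32.7% of the CDS, and T 21.4% against 19.0%. Under FL peaks of COL1A2, A made up 14.5% against 18.9%. The 3 FL helix peaks of COL1A2 with a score of at least 10 had 43.2% pyrimidines, against 49.4% of its helix. Predicted folding was level with the CDS for FL in COL1A1, and its medians were lower in the other lists and in COL1A2. With 50 nt on either side, the median minimum free energy at the FL peak centres was -33.9 kcal/mol in COL1A1, as over its whole CDS, and -34.8 kcal/mol in COL1A2, where the CDS had a median of -33.1. In ΔNTR the medians were -35.1 and -35.2 kcal/mol, and in ΔCTR -34.95 and -34.2 kcal/mol. The share of peak centres below the CDS median ran from 50% (COL1A1, FL) to 64.7% (COL1A2, ΔCTR). These differences were not tested. Distances to the nearest exon end, with medians of 23 and 22 nt for FL, were close to the 22 and 20 nt of the CDS. In FL, 13 of the 42 CDS peaks of COL1A1 and 5 of the 22 of COL1A2 reached beyond an exon into the intron.

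The input showed how much of either mRNA the lines held. Parental cells gave 22940 PE150 counts of COL1A1, the FL line 20487, the ΔNTR line 15719, the ΔCTR line 26945, the ΔLa-module line 27867 and the ΔNTD line 24592. COL1A2 had 20731, 19104, 14624, 19401, 19750 and 17374 counts in the same order. ΔNTR was lowest for both genes, and ΔCTR, ΔLa-module and ΔNTD were above parental cells in CPM for COL1A1 but not for COL1A2. In bulk RNA, fewer cells that express a gene and less RNA per cell cannot be told apart. Per kb of mRNA, COL1A1 stood at 106 to 168 CPM and COL1A2 at 115 to 152 CPM. In parental cells they took ranks 92 and 113 of 20015 protein-coding genes by CPM.

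On the log2(CPM + 1) scale, the difference from parental cells in ΔNTR was -0.44 for COL1A1 (counting interval -0.47 to -0.41) and -0.40 for COL1A2 (-0.43 to -0.37). In FL it was -0.23 and -0.18. COL1A1 stood 0.22 higher in ΔCTR, 0.19 higher in ΔLa-module and 0.06 higher in ΔNTD, while COL1A2 gave -0.11, -0.16 and -0.29. Neither gene reached a 2-fold difference in any line. Of the 14411 to 14650 genes with at least 1 CPM in either library, 0.0555% did so with FL, 0.744% with ΔNTR, 0.0763% with ΔCTR, 0.398% with ΔLa-module and 0.326% with ΔNTD. Only 3.34% of genes in ΔNTR lay below COL1A1 and 4.31% below COL1A2. With 1 library per line, these differences have no replicate check.

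**Figure D5:**
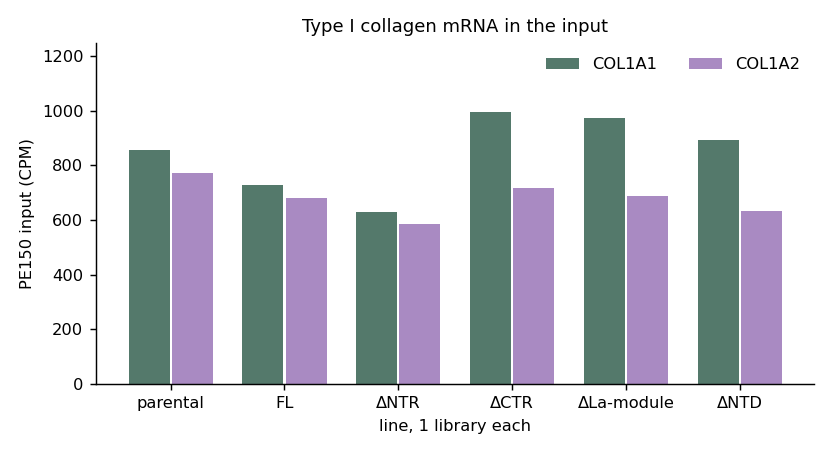
PE150 input level of COL1A1 and COL1A2 (y, CPM after TMM scaling) in the 6 lines (x); each bar is 1 library, so there is no error bar. COL1A1 ranges from 629 CPM in ΔNTR to 995 CPM in ΔCTR, and COL1A2 from 586 CPM in ΔNTR to 773 CPM in parental cells.

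Set against the mRNA in the same line, the FL score per 1000 PE150 counts was 22.1 for COL1A1 and 14.7 for COL1A2, ΔNTR gave 23.7 and 17.2, and ΔCTR gave 27.4 and 20.5. The median gene with at least 100 counts and a peak stood at 3.58 with FL, 3.93 with ΔNTR and 4.13 with ΔCTR, so it too was higher in the mutant lists. For the 5′UTR, the FL value was 7.37 in COL1A1 and 7.96 in COL1A2, against 3.63 and 5.47 for ΔNTR and 6.01 and 7.58 for ΔCTR. The ΔNTR ratio to FL was thus 0.492 (0.356 to 0.671) and 0.688 (0.518 to 0.907). For the CDS, the ratios in ΔNTR were 1.38 (1.17 to 1.62) and 1.70 (1.35 to 2.16), and in ΔCTR 1.47 (1.28 to 1.70) and 1.85 (1.48 to 2.31). On this scale the whole-gene ratio of COL1A1 in ΔNTR turned from below 1 to 1.08 (0.935 to 1.24). These PE150 counts were not scaled to library depth, and the libraries held 27935221 counts in genes for FL, 25027075 for ΔNTR and 26936180 for ΔCTR. The smaller libraries of ΔNTR and ΔCTR raise their ratios on this scale, most for ΔNTR. Ratios of the score to CPM were not computed, so the turn cannot be ascribed to the mRNA level.

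By the split of the FL score between 5′UTR, CDS and 3′UTR, the gene most like either member among 215 genes with at least 10 FL peaks was SPTBN1, a spectrin of the membrane skeleton, at a distance of 18.1 percentage points from both. GAPDH, a glycolytic enzyme, came next for COL1A1 at 19.9 points, and COL1A1 itself for COL1A2 at 28.6 points. Other neighbours were EIF4G2, KIF1C and NSD2 for COL1A1 and GAPDH and CAMK2N1 for COL1A2, at 25 to 48.4 points. Over the input of the 6 lines, the levels closest to COL1A1 were those of PRMT3, RGMB, GSK3B, RBBP9 and KCTD1 (Pearson's r of 0.966 to 0.986), and closest to COL1A2 those of NFXL1, ENSG00000236453, CEP85, STX4 and MRM3 (0.981 to 0.991). COL1A1 and COL1A2 had an r of 0.599 with each other. These values are descriptions over 6 libraries among 9074 genes.

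Among 15076 genes of at least 1 CPM in a line, 30.8% had an FL peak, 31.3% a ΔNTR peak and 32.9% a ΔCTR peak, without matching for level. Of 13 genes past that level whose products fold and modify procollagen, from a list of 14, 11 had an FL peak, 12 a ΔNTR peak and 12 a ΔCTR peak. P4HB, a subunit of prolyl 4-hydroxylase, had 20 FL peaks with a summed score of 162, and PLOD2, a lysyl hydroxylase, had 17 with 115. The chaperone of the endoplasmic reticulum that is specific to collagen, SERPINH1, had 2 with a score of 7. A 5′UTR peak in FL was found in 2 of the 14, CRTAP and PLOD3, both among the 11 with an FL peak. Over all genes, 4873 had an FL peak and 506 had one in the 5′UTR, so 2 is too few to set apart. Their scores of 3 and 5 were far below the 151 and 152 of the collagen mRNAs. None of the 13 differed 2-fold from parental cells in the input of any line.

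Of 11 such genes for export and processing of procollagen, from a list of 12, 7 had an FL peak, 4 a ΔNTR peak and 7 a ΔCTR peak. LOX, which crosslinks collagen, had the most, 10 in FL with a score of 54. It was the only one of the 11 past 2-fold in the input, in 3 lines, where parental cells had 197 CPM and the ΔNTR, ΔLa-module and ΔNTD lines 538, 425 and 420 CPM. Among 9 other genes of fibrillar collagens, 3 reached 1 CPM: COL5A1, COL5A2 and COL27A1. COL5A1 had 9 FL peaks with a score of 74, of which 5 lay in the CDS and 1, of score 3, in the 5′UTR. COL3A1, which shares the stem-loop, was nearly absent from these cells, at 0.14 CPM or less, and had no peak.

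On a list of LARP6 and its reported partners and regulators in collagen synthesis, 5 of 7 genes had an FL peak. STRAP had 4 FL peaks with a score of 19, and FKBP3 had 1 of score 3. DHX9 had none in FL and 2 each in ΔNTR and ΔCTR, and MYH10 had none in FL, ΔNTR or ΔCTR. VIM and MYH9, cytoskeletal proteins, had 24 and 39 FL peaks. The 3 FL peaks of LARP6's own mRNA scored 31, of which 28 lay in the 5′UTR.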

How the data were processed

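The members, gene lists and rules were chosen with earlier results of these data known. According to the study's methods, the authors trimmed iCLIP reads, removed rRNA and tRNA reads with Bowtie 2, aligned the rest with STAR to GRCh38.p13, removed PCR duplicates with UMI-tools and called peaks with Clippy in each replicate. They merged the replicates, summed the peak scores and subtracted parental peaks with bedtools 2.30.0. The deposited score of a peak is thus a sum over 3 replicates, whole and at least 3. Lists that were merged and subtracted can hold fragments of peaks, and their depth per replicate is unknown. The deposited input files hold counts per gene that the authors took from STAR 2.7.10b after Trim Galore 0.6.10, unscaled. The reverse-strand column was used for PE150 and the forward-strand column for SE50.

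Peaks were placed by their centre on the MANE Select transcripts of GENCODE 44, a later release on the same build, and overlaps needed 1 nt on the same strand. A site joins all peaks of FL, ΔNTR and ΔCTR that overlap in a chain. The helix is the longest uninterrupted Gly-X-Y run of the translated CDS. Sequences were read from the reference transcripts, and folding used RNAfold 2.7.2. Intervals at 95% are exact Poisson for counts, Wilson for shares and exact binomial for ratios. They treat scores as counts and cover counting error only. PE150 counts were scaled by TMM factors (edgeR 4.0.16, R 4.3.3), with 1 added to each CPM before log2, and DESeq2 1.42.0 size factors were an alternative. Of 62750 gene identifiers, 62625 matched the annotation without their version. No test between groups was possible. Antisense genes overlap both members, and strand was kept throughout. The functions were tested on simulated data.

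Sites named in the text are all sites of the 5′UTR, the CDS sites in all 3 lists with the highest FL score (up to 6 per gene; peaks of 1 site are given together, and COL1A1 exons 37 and 45 were added after their values were seen), and the highest mutant peaks that overlap no FL peak (up to 2 per gene and list, ties included). The genes listed as like a member are from the 5 nearest, of which 1 is not reported here. Alternatives were the minimum score, the assignment of peaks and regions, the overlap needed, the scaling, the helix definition, the sequence window, the pseudocount and the strand column.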

Additional observations from a re-analysis of the deposited data

How the results depend on the processing

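Of 133 values under alternatives, 116 stayed within the 95% interval of the reported value or, for counts, within 1.5 times of it. Some of the 116 could not move. With 1 added to each CPM, genes below 1 CPM cannot differ 2-fold, which fixed the 5 counts without a filter. No 5′UTR peak of the members scored 3, which fixed the 4 ratios of the 5′UTR above that score. The alternatives of the 5′UTR ratio were chosen after seeing the data. Set against PE150 counts not scaled to library depth, the whole-gene ΔNTR ratio reversed to 1.08 in COL1A1 and moved to 1.18 in COL1A2. In COL1A1 the ΔCTR ratio moved to 1.24 for the gene and to 0.816 for the 5′UTR. The unequal size of the libraries enters these values, and an alternative set against CPM was not run. As shares of the list totals, the COL1A1 ΔCTR ratios were 1.41 for the gene and 1.68 for the CDS. Above a score of 3, the peaks fell to 29 in COL1A1 FL and to 14, 21 and 22 in COL1A2 FL, ΔNTR and ΔCTR, and the COL1A2 CDS held 37.7%, 57.1% and 55.1% of the score. With 50% of both peaks required, FL peaks were overlapped in ΔNTR and ΔCTR at 42.6% and 48.9% in COL1A1 and at 30.8% and 42.3% in COL1A2. The stricter overlap by construction leaves fewer. The share of all FL peaks under it was not computed, so these values cannot be set against the whole list. The input differences and the helix ratios stayed in their intervals under every alternative run. No paired analysis was possible because the merged lists carry no replicate numbers and the input has 1 library per line. Leaving out a replicate was not run, since each value rests on 1 list or library. The depth of the replicates behind the lists is unknown, and counting error is widest for regions with few peaks.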

Other observations

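In the SE50 libraries, described as small RNA and used in none of the comparisons, parental cells gave 558 counts of COL1A1, the FL line 751, the ΔNTR line 628, the ΔCTR line 470, the ΔLa-module line 774 and the ΔNTD line 715. COL1A2 had 36, 18, 24, 11, 25 and 44 counts in the same order. The genes thus differed widely in these libraries, at 54.1 to 98.6 CPM for COL1A1 and 1.78 to 4.72 CPM for COL1A2, although their PE150 counts were of similar size in every line.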
